A study of Mus musculus with 6 samples.

Results

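Gfi1b encodes GFI1B, a zinc-finger transcriptional repressor and the paralogue of GFI1. Its accessible sites were taken from a table of 182166 ATAC-seq peaks as the peaks that overlapped the gene body or lay within 50 kb of it with Gfi1b as the nearest protein-coding gene. This gave 14 peaks. The 6 libraries came from granulocyte-monocyte progenitors, which are committed precursors of neutrophils and monocytes, sorted by flow cytometry from bone marrow. The mice were untreated and on the C57BL/6 background. In 3 libraries the mice were of the genotype GFI1-KI (GFI1 KI /KI), in which a human GFI1 gene takes the place of the mouse gene. In the other 3 they were GFI1-KD (GFI1 KD /KD), in which human GFI1 is made at 10 to 20% of the usual level in place of mouse Gfi1. Both genotypes therefore carry a human GFI1 gene and neither has an unmodified Gfi1 locus. The Gfi1b gene was not targeted. The ages of the mice, and whether each library came from a separate animal, are not stated, and p-values therefore reflect only how far these libraries scatter, which may be technical. Libraries are called KI1 to KI3 and KD1 to KD3 here.

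GFI1 and GFI1B share an N-terminal SNAG domain, which recruits the histone demethylase LSD1 (Kdm1a) with the CoREST scaffold and histone deacetylases, and C-terminal zinc fingers that bind DNA at sites with an AATC core. GFI1 acts mainly in stem cells, lymphoid cells and the granulocyte lineage. GFI1B acts mainly in the erythroid and megakaryocyte lineages, and each protein can repress the gene of the other as well as its own. ATAC-seq reads mark DNA that the Tn5 transposase can reach, so they measure accessibility of the Gfi1b locus and not the amount of Gfi1b RNA or protein.

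Gfi1b lies on the minus strand of chromosome 2 from 28609450 to 28621982 (mm10), with a single RefSeq start at 28621982. Peaks are named by the distance of their middle from this start, positive in the direction of transcription. Of the 14 peaks, 5 overlapped the gene body, 7 lay downstream of it toward Gtf3c5 (a subunit gene of the RNA polymerase III factor TFIIIC) and 2 lay upstream toward Tsc1 (a tumour suppressor gene that restrains mTOR signalling). Exons and introns were not told apart. The promoter is shown because 1 of the peaks, from 28621656 to 28622171, covers the start and because GFI1 and GFI1B are known to bind there. The 250 bases before the start (RefSeq, GRCm38.p6, chr2:28621983-28622232, minus strand), of which 189 lie in that peak, read as follows, with the GFI1 core AATC (or its complement GATT) and the GATA motif TGATAA in capitals:

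Gfi1b promoter: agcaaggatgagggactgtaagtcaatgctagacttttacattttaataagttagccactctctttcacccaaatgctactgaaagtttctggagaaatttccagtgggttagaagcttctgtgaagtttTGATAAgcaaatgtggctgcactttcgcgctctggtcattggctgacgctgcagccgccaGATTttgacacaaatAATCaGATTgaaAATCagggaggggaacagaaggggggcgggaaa

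AATC was found 4 times on either strand, all within 60 bases of the start. It is a short motif, present in 69.0% of 32851 RefSeq promoter windows of the same length. TGATAA was found 1 time, 120 bases before the start, and 7.94% of windows hold it. The longer GFI1 form AATCANNGC (2.87% of windows), the GATA motif AGATAA (9.99%), the E-boxes CAGATG (14.4%) and CAGCTG (13.0%), the ETS motif GGAAGT (19.7%) and the RUNX motifs TGTGGT (14.05%) and TGCGGT (5.10%) were not in this window on either strand. A match is a string of letters and does not show that a factor was bound.

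Reads in peaks ran from 19408373 to 27741446 in the GFI1-KI libraries and from 16022763 to 19857646 in the GFI1-KD libraries. All 14 Gfi1b peaks had a mean of at least 10 normalized reads and were tested. Their means reached 691 normalized reads and their lengths ran from 144 to 837 bp. The thinnest value rested on 8 reads and the fullest on 831. KI2 and KD1 held at most 1 read on chromosome Y, against 499 to 865 in the other libraries, so each genotype had 1 such library.

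In GFI1-KD, 3 downstream peaks were lower and 1 peak inside the gene was higher, while the promoter and its upstream neighbour did not pass the test. The 4 called peaks of 14 (28.6%) compare with 10.5% of the 170733 peaks tested in the genome. By direction, 3 were lower against a background of 5.48% and 1 was higher against 4.99%. The background split depended on the scaling, at 4.88% lower and 6.92% higher with equal totals in peaks, whereas the Gfi1b calls stayed at 3 and 1. The genotypes did not overlap at 4 of the 14 peaks, against 28.8% of all tested peaks. A peak was called where limma's moderated test on log2(normalized reads + 1) gave a p under 0.05 after Benjamini-Hochberg adjustment over all tested peaks. The median log2 fold change was -0.03 over the 14 peaks and -0.05 over all tested peaks. Of 3308 genes with 10 to 18 tested peaks, 207 (6.26%) had 4 or more called, and the median gene had 1.

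**Figure D1:**
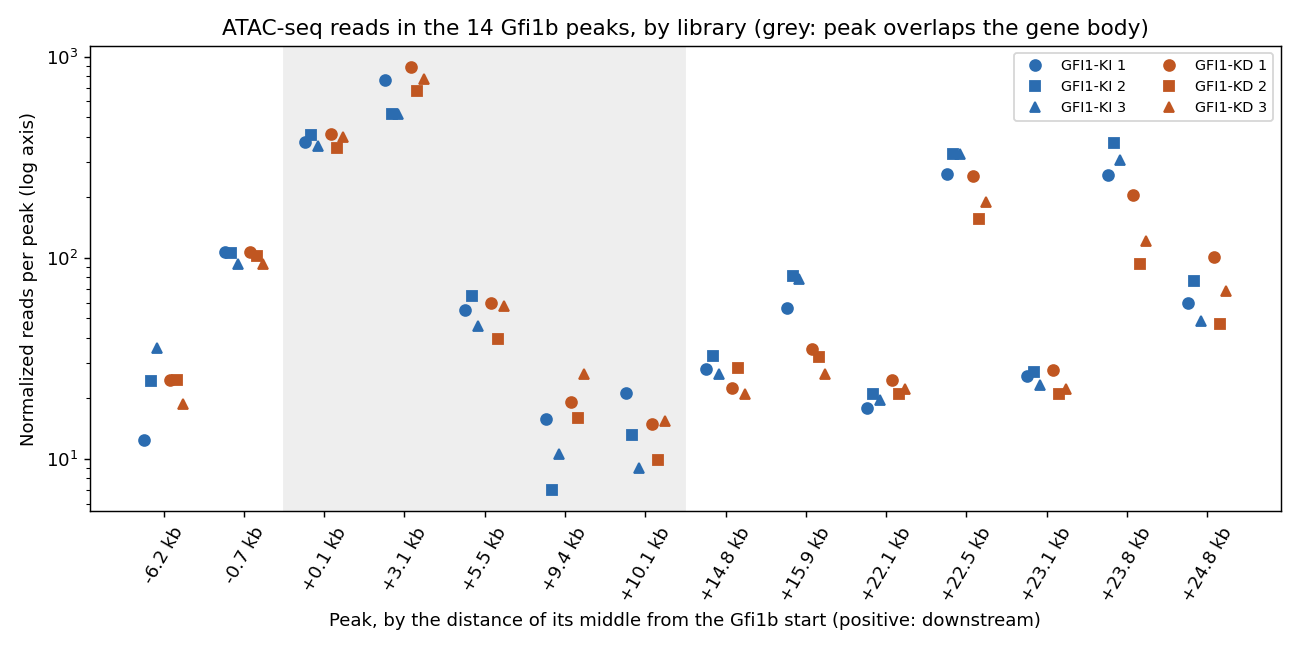
Normalized reads (log axis) of each library in the 14 Gfi1b peaks, ordered by distance from the Gfi1b start, with GFI1-KI in blue, GFI1-KD in orange and grey shading for peaks that overlap the gene body. The groups stand apart at +15.9, +22.5 and +23.8 kb, where GFI1-KD was lower, and at +9.4 kb, where it was higher.

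The promoter peak was among the strongest of the locus per length. It held 378, 409 and 361 normalized reads in KI1 to KI3 and 415, 353 and 401 in KD1 to KD3. The genotypes overlapped fully. Means were 383 ± 24.5 for GFI1-KI against 390 ± 32.7 for GFI1-KD (SD, n = 3), and the log2 fold change was 0.02 ± 0.10 (SE, adjusted p = 0.905 by limma). The 95% interval of the change ran from -0.17 to 0.22 on the log2 scale, so a change smaller than these bounds cannot be told from none. The peak 0.707 kb upstream of the start, from 28622600 to 28622777, held 92.9 to 107 normalized reads in all 6 libraries (log2 fold change -0.02 ± 0.15, interval -0.32 to 0.29). The farther upstream peak at -6.24 kb was shallow, with 12.4 to 35.5 normalized reads, and its interval ran from -0.62 to 0.66.

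Inside the gene, the strongest peak of the locus lay at +3.11 kb, from 28618453 to 28619289. It ends 381 bases short of the start of Gm52548, a long non-coding RNA gene that RefSeq places on the opposite strand across the Gfi1b promoter. The peak held 763, 521 and 519 normalized reads in KI1 to KI3 and 889, 674 and 780 in KD1 to KD3. KI2 and KI3 lay below all GFI1-KD libraries, but KI1 lay above KD2, so the groups overlapped. Means were 601 ± 141 and 781 ± 108 (SD, n = 3), a log2 fold change of 0.39 ± 0.12 (SE, adjusted p = 0.0341 by limma). This call was lost in limma without KI2 (adjusted p = 0.189), KI3 (0.191), KD1 (0.12) or KD3 (0.107). DESeq2 on the reads recovered from the values (0.223), limma with robust variance estimation (0.176) and limma without a variance trend (0.304) did not make it.

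The other peaks in the gene body were low. At +9.42 kb, from 28612469 to 28612664, GFI1-KI libraries held 15.8, 7.01 and 10.6 normalized reads and GFI1-KD libraries 19.3, 16.04 and 26.6. All GFI1-KD values lay above all GFI1-KI values, but the counts behind them were 8 to 24 reads and the change of 0.87 ± 0.34 did not pass the test (limma adjusted p = 0.106). Without KI1 it did (1.14, limma adjusted p = 0.0431). The peaks at +10.1 and +5.45 kb had log2 fold changes of -0.05 ± 0.36 and -0.09 ± 0.20, with overlapping groups.

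Downstream of the gene, GFI1-KD was lower at 3 of 7 peaks. The lower peak with the most reads was at +23.8 kb, from 28597812 to 28598531, which lies 10.9 kb beyond the end of the gene body. This peak held 258, 373 and 307 normalized reads in KI1 to KI3, from 229, 426 and 407 reads. It held 205, 93.8 and 122 in KD1 to KD3, from 192, 76 and 110 reads. Every GFI1-KD library lay below every GFI1-KI library, with KI1 and KD1 nearest to each other and KD2 lowest. The mean fell from 313 ± 58.0 to 140 ± 58.1 (SD, n = 3), to 0.449 of the GFI1-KI mean, and the log2 fold change was -1.21 ± 0.19 (SE, adjusted p = 0.000376 by limma). Limma with robust variance estimation (adjusted p = 0.0564) and limma without a variance trend (0.0842) did not call the peak, whereas the other 16 alternatives did.

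Its neighbour at +22.5 kb, from 28599095 to 28599772, held 262, 327 and 328 normalized reads in KI1 to KI3 and 257, 157 and 190 in KD1 to KD3. The groups did not overlap, although KI1 and KD1 differed by less than the spread within either group. The mean went from 306 ± 37.8 to 201 ± 51.0 (SD, n = 3), a log2 fold change of -0.63 ± 0.14 (SE, adjusted p = 0.00734 by limma). Without KD2 the adjusted p was 0.0501 and the change -0.46, and without a variance trend the adjusted p was 0.153. Small peaks at +24.8, +23.1 and +22.1 kb stand between and beside this pair. Those 3 were not called, with log2 fold changes of 0.18 ± 0.23, -0.11 ± 0.24 and 0.20 ± 0.26. Adjoining peaks can share fragments and need not be independent sites.

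The third lower peak stood alone at +15.9 kb, from 28605782 to 28606360, between the gene and the downstream pair. It held 56.3, 81.5 and 78.5 normalized reads in KI1 to KI3 and 35.3, 32.1 and 26.6 in KD1 to KD3. The groups did not overlap, and the lowest GFI1-KI library was KI1. The reads behind these values were 50, 93 and 104 in GFI1-KI and 33, 26 and 24 in GFI1-KD. Means were 72.1 ± 13.8 and 31.3 ± 4.40 (SD, n = 3), and the log2 fold change was -1.17 ± 0.20 (SE, adjusted p = 0.000854 by limma). Of the 4 called peaks this was the one whose call was made in all 18 alternatives run on it, with adjusted p-values from 0.000278 to 0.0446. The nearest member, at +14.8 kb, was not called (log2 fold change -0.27 ± 0.24, limma adjusted p = 0.514).

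**Figure D2:**
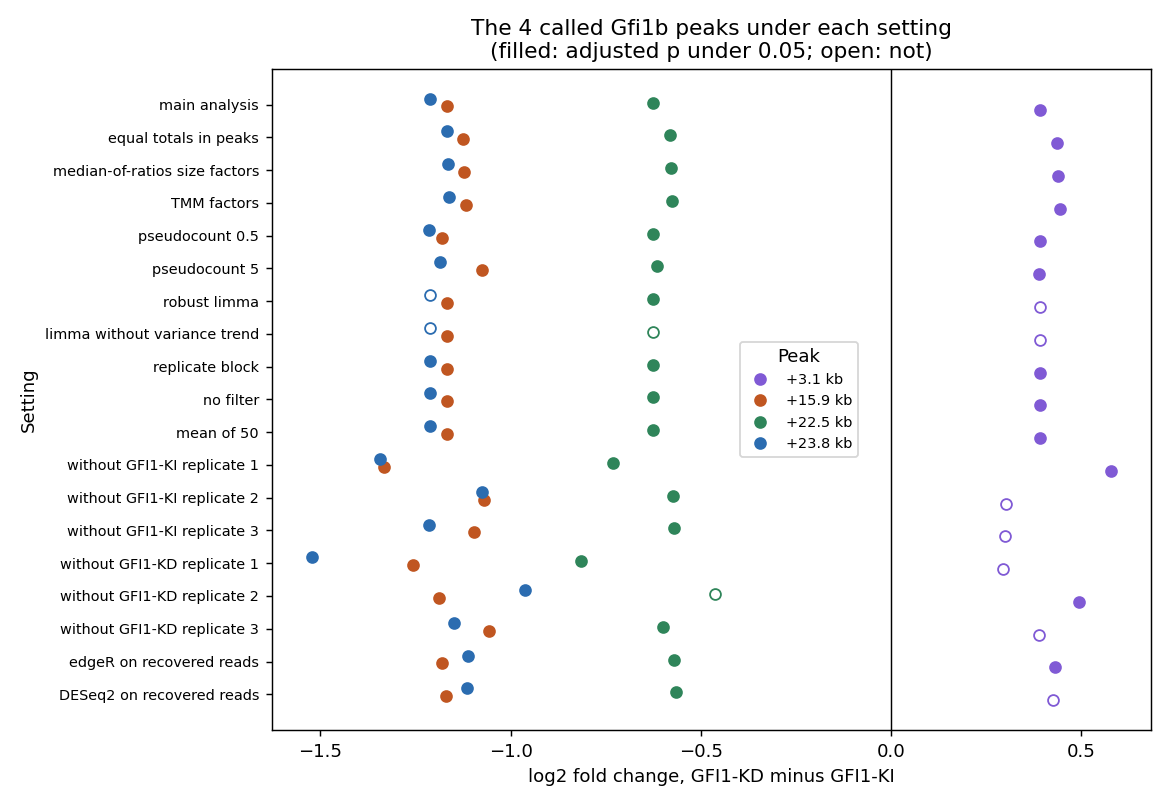
log2 fold change of the 4 called Gfi1b peaks under each setting, filled where the adjusted p was under 0.05 and open where not. The +15.9 kb peak is filled throughout, and the +3.1 kb peak is open in 7 of 18 alternatives.

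Per length, the 3 lower peaks were not the strongest of the locus. In GFI1-KI the mean was 742 normalized reads per kb of peak at the promoter, 718 at +3.11 kb, 451 at +22.5 kb, 435 at +23.8 kb and 125 at +15.9 kb. In GFI1-KD the corresponding means were 755, 933, 297, 195 and 54.1. The order of the pair at +22.5 and +23.8 kb in GFI1-KI did not exceed their spread over libraries, since the +23.8 kb peak held more reads than the +22.5 kb peak in KI2 and fewer in KI3.

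The summed reads of the locus did not pass the test. Over all 14 peaks the sum was 2062, 2085 and 1906 normalized reads in KI1 to KI3 and 2203, 1619 and 1865 in KD1 to KD3. The genotypes overlapped, with means of 2018 ± 97.3 and 1896 ± 293 (SD, n = 3). In a limma fit on the sums of 17599 genes, of which 16.6% were called (4.11% higher, 12.5% lower), the log2 fold change of Gfi1b was -0.10 ± 0.08 (SE, adjusted p = 0.38). Without KD1 it was -0.21 (limma adjusted p = 0.0208), and without KD2 it was 0.00784 (0.954). Gfi1, the paralogue, was likewise not called on its sum over 13 peaks (0.06 ± 0.07, limma adjusted p = 0.574), although its mouse locus is the one that was modified. Single Gfi1 peaks did change, with 3 of the 13 called higher and 2 lower, against 4.99% and 5.48% of all tested peaks.

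The split within the locus was read as the ratio of reads outside the gene body to reads inside it. The 3 lower peaks lie in the outside part and the higher peak at +3.11 kb in the inside part. The ratio therefore in large part restates those calls and is not a separate result. The ratio was 0.671, 1.05 and 1.02 in KI1 to KI3 and 0.575, 0.482 and 0.456 in KD1 to KD3. All GFI1-KD libraries lay below all GFI1-KI libraries, and KI1 was the nearest to them. The difference of the log2 ratios was -0.83, with an exact two-sided permutation p of 0.1, the smallest that 3 against 3 libraries can give. The 7 downstream peaks held 34.4, 45.1 and 43.7% of the locus reads in KI1 to KI3 and 30.5, 24.7 and 25.3% in KD1 to KD3.

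**Figure D3:**
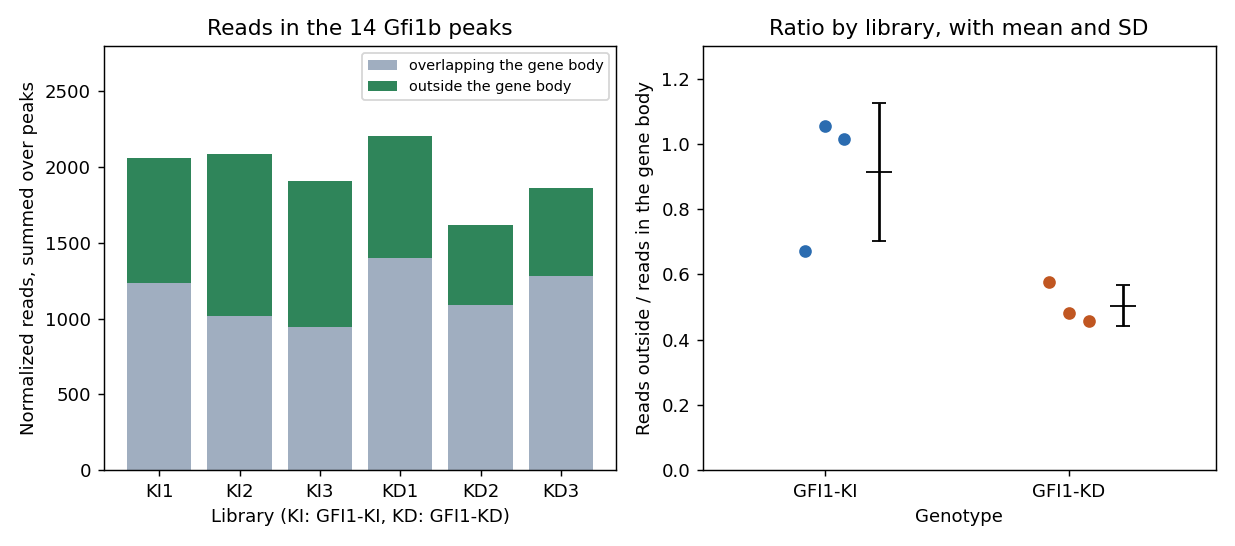
Left, normalized reads summed over the Gfi1b peaks of each library, split into peaks that overlap the gene body and peaks outside it. Right, the ratio of the 2 parts by library, with mean and SD (n = 3); the GFI1-KD libraries lie between 0.456 and 0.575, below the GFI1-KI libraries.

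At the edge of the set, the outermost downstream member at +24.8 kb lies 12.1 kb from the Gfi1b body, and the next peak, at +29.0 kb, is nearer to Gtf3c5. The former held means of 61.7 ± 14.5 and 72.1 ± 27.0 normalized reads and the latter 101 ± 6.36 and 96.1 ± 6.67 (SD, n = 3). Just beyond, at +30.4 kb, a strong peak assigned to Gtf3c5 moved in the other direction from the 3 lower Gfi1b peaks. It lies from 28591221 to 28592000 and held 749, 520 and 520 normalized reads in KI1 to KI3 and 1011, 874 and 992 in KD1 to KD3. The groups did not overlap, and KI1 was again the GFI1-KI library nearest to GFI1-KD. The log2 fold change was 0.70 ± 0.11 (SE, adjusted p = 0.000245 by limma), called in 17 of 18 alternatives, the exception being limma without a variance trend (0.0929). With every peak between the bodies of Gtf3c5 and Tsc1 counted, 5 of 20 were called, 3 lower and 2 higher.

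**Figure D4:**
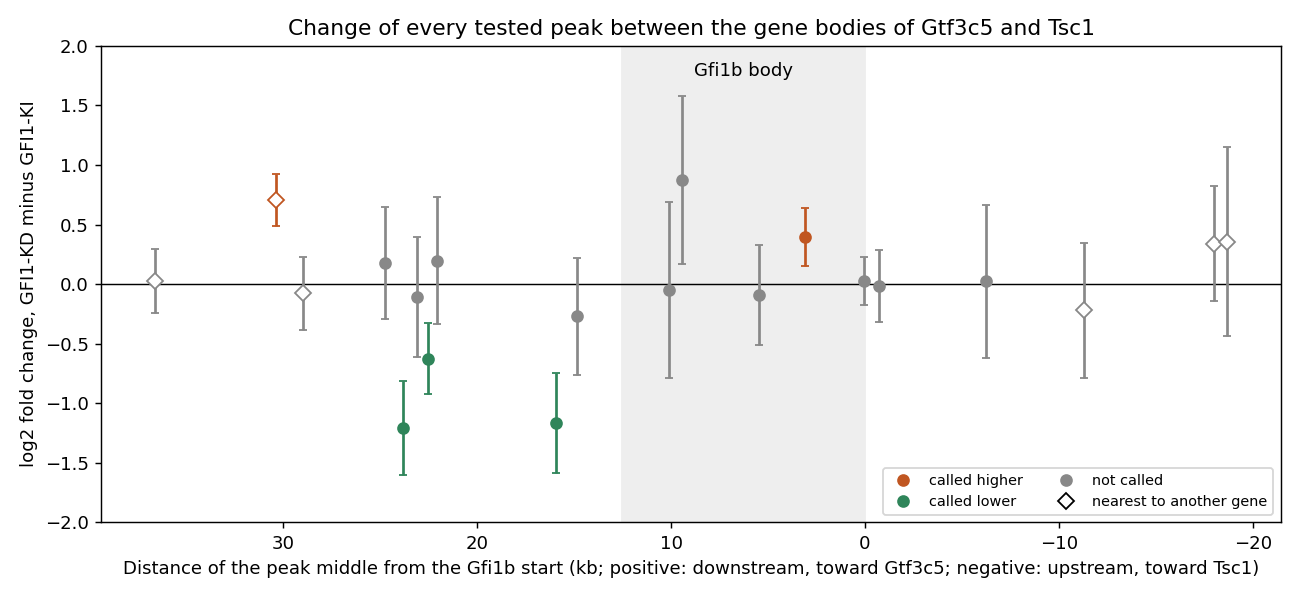
log2 fold change with its 95% interval for each of the 20 peaks between the gene bodies of Gtf3c5 and Tsc1, against the distance from the Gfi1b start, with open diamonds for peaks nearest to another gene. The lower calls lie between 15.9 and 23.8 kb downstream, flanked by a higher call at 30.4 kb and another inside the gene.

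The wider surroundings changed about as often as the genome. Within 250 kb of Gfi1b, 8 of 88 tested peaks that were not assigned to it were called (9.09%), 6 higher and 2 lower. Ralgds, which encodes an exchange factor for Ral GTPases, had 2 of 12 peaks higher, and Ak8, an adenylate kinase gene, had 2 of 16 lower. The sum over the 5 Gtf3c5 peaks was higher in GFI1-KD by 0.28 ± 0.07 (SE, adjusted p = 0.00751 by limma). This sum includes the +30.4 kb peak, the only 1 of the 5 that was called. The mean sum went from 1582 to 1921 normalized reads and that peak alone from 596 to 959, so the rise of the sum is that of this peak.

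The genes of the GFI1B pathway were then examined, each list by its calls. Of the corepressors and partners, 13 genes with 245 tested peaks, 7 peaks were higher and 22 lower (11.8%), near the 10.5% of all peaks. With equal totals 11 were higher and 20 lower, and without KI3 the split was 5 and 5. Over all tested peaks 11.8% were called with equal totals and 4.1% without KI3. Gse1, which encodes a CoREST-associated protein, held 126 of the 245 tested peaks and 19 of the 22 lower ones, with 2 higher. The strongest lies on chromosome 8 from 120371735 to 120372111 and went from 352 ± 67.9 to 151 ± 35.9 normalized reads (SD, n = 3; log2 fold change -1.22 ± 0.15, limma adjusted p = 3.81e-05). Kdm1a, the demethylase itself, had 1 of 9 peaks higher.

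Of the factors that bind the Gfi1b locus in blood cells, 13 genes with 355 tested peaks, 11 peaks were higher and 25 lower (10.1%), near the 10.5% of all peaks. With equal totals 18 were higher and 22 lower, and without KI2 or without KI3 10 were lower. Over all tested peaks 6.92% were higher and 4.88% lower with equal totals, and 1.72% and 1.99% were lower without KI2 and without KI3. Runx1, a core haematopoietic factor, had 3 higher and 9 lower of 77. Zfpm1, which encodes the GATA1 cofactor FOG1, had 1 higher and 5 lower of 30, and its strongest peak, on chromosome 8 from 122284740 to 122285121, fell from 327 ± 29.3 to 192 ± 13.2 normalized reads (SD, n = 3; log2 fold change -0.76 ± 0.11, limma adjusted p = 0.000186). Gata1, Tal1 and Lyl1, which drive erythroid and megakaryocyte genes, each had 1 peak lower, of 6, 11 and 3. Gata2 had 2 higher and 1 lower of 26, Erg 3 and 1 of 60, and Fli1 1 and 3 of 42. Spi1 had 1 higher of 16 and Myb 3 lower of 41. Lmo2, Ldb1 and Nfe2, with 24, 10 and 9 peaks, had no calls. Of 14 genes reported as GFI1B or GFI1 targets, Gfi1b included, 28 of 261 tested peaks were higher and 13 lower (15.7%, against 10.5% of all peaks). The counts were 18 and 6 without KI2, 15 and 6 without KI3, 31 and 21 without KI1, 17 and 7 without KD3, and 37 and 13 with equal totals. Over all tested peaks the called shares in these settings were 4.24%, 4.1%, 13%, 6.33% and 11.8%. Socs3, a brake on cytokine signalling, gave 9 of the higher peaks, and its strongest rose from 542 ± 49.1 to 873 ± 78.5 normalized reads (SD, n = 3; log2 fold change 0.69 ± 0.08, limma adjusted p = 3.81e-05). Tgfbr3, a TGF-beta co-receptor gene, gave 9 higher and 3 lower of 44. Gfi1, whose mouse locus was modified, stands in this list too and gave 3 higher and 2 lower of 13. How many calls of the list lie near that locus was not tested.

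Most calls at effector genes of the lineages in which GFI1B acts were lower. Of the erythroid effectors, 10 of 74 tested peaks (13.5%) were lower and 0 higher in limma, against 5.48% lower and 4.99% higher of all peaks, and edgeR gave the same counts. At an unadjusted limma p under 0.05, 24 were lower and 2 higher. Of all 170733 tested peaks, 43463 had such a p in either direction. Without KI2 or without KI3, 3 were lower and 0 higher, and without KD2 6 and 0. Over all tested peaks 1.72%, 1.99% and 3.36% were lower without KI2, KI3 and KD2. The lower peaks included 3 at Car2, 2 at Ank1 and 1 each at Epor, Hbb-bt and Rhag. The strongest, at Car2, a carbonic anhydrase gene, lies on chromosome 3 from 14886094 to 14887054 and went from 621 ± 2.61 to 418.5 ± 54.2 normalized reads (SD, n = 3; log2 fold change -0.58 ± 0.09, limma adjusted p = 0.000464). Of the megakaryocyte effectors, 13 of 123 tested peaks were lower and 3 higher (13.0% in either direction, against 10.5% of all peaks). The counts were 12 and 7 with equal totals, 8 and 1 without KI2, and 9 and 0 without KI3. Over all tested peaks the lower and higher shares in these settings were 4.88% and 6.92%, 1.72% and 2.52%, and 1.99% and 2.11%. Gp9, a platelet glycoprotein gene, and Gp1bb, a subunit of the same receptor complex, had 2 lower peaks each. By gene, 9 had only lower calls, 2 had both and 1 only higher, which was Vwf with 1 of 31. The strongest Gp9 peak spans 87775907 to 87776343 of chromosome 6 and held 124 ± 29.9 normalized reads against 45.3 ± 11.9 (SD, n = 3; log2 fold change -1.44 ± 0.20, limma adjusted p = 0.000105). The median log2 fold change was -0.30 over the erythroid and -0.14 over the megakaryocyte peaks, against -0.05 over all tested peaks.

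Lineage markers were also read at transcript starts, as the summed normalized reads in peaks within 1 kb of a RefSeq start. The granulocyte-monocyte progenitor list held 548 to 575 reads per gene on average by genotype, with peaks at the starts of 9 of 13 genes, among them Mpo, Elane, Ctsg, Cebpa and Kit. Prtn3, Cebpe, Fcgr3 and Csf1r had none. The B cell list averaged 39.0 reads per gene for GFI1-KI against 42.4 for GFI1-KD, with start peaks missing at, among others, Cd79a, Cd79b and Ms4a1. T and NK markers averaged 16.2 against 13.4, with none at Cd3e, Cd3g, Cd2 and Ncr1. The stem and multipotent progenitor list averaged 480 against 441 and the megakaryocyte list 192 against 138. Mast cell and basophil markers averaged 118 against 106 and erythroid markers 110 against 91.7. The granulocyte-monocyte progenitor list summed to between 7320 and 7676 in GFI1-KI and between 6864 and 7362 in GFI1-KD, with overlap. Of its 13 tested start peaks 1 was called lower by limma, and the Kit start, that of a stem cell factor receptor gene, held 1039 to 1182 normalized reads across GFI1-KD libraries against 1388 to 1439 across GFI1-KI libraries.

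The summed starts of 4 other marker lists were lower in GFI1-KD, though not for every gene, as were 3 of the 7 downstream Gfi1b peaks. The megakaryocyte starts (peaks at 5 of 8 genes, and none at Ppbp or Vwf among the others) summed to between 1402 and 1718 in GFI1-KI and between 957 and 1275 in GFI1-KD. The erythroid starts, with peaks at Klf1 and Epor alone of 9 genes, summed to between 955 and 1063 and between 786 and 859. Stem and multipotent progenitor starts (6 of 7 genes, none at Ly6a) ran from 3193 to 3524 and from 2932 to 3178, and mast cell and basophil starts (4 of 6 genes, none at Ms4a2 or Fcer1a) from 682.3 to 734.8 and from 608.7 to 681.6. None of these 4 sums overlapped between genotypes as deposited, but with equal totals the stem and the mast cell sums did. Of all single tested peaks, 28.8% did not overlap either. Within these lists Procr starts were higher in every GFI1-KD library (246 to 285 against 225 to 237), and the Mcpt8 start held 231 to 287 against 198 to 238. Of the tested start peaks, 3 of 9 megakaryocyte, 1 of 4 erythroid, 2 of 14 stem and 1 of 5 mast cell peaks were called lower by limma. Among all tested peaks the share called lower was 5.48%, and the start peaks of each list are few. In bulk libraries, fewer cells of a type and less accessibility per cell cannot be told apart, and the part of these markers in the Gfi1b result was not tested.

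**Figure D5:**
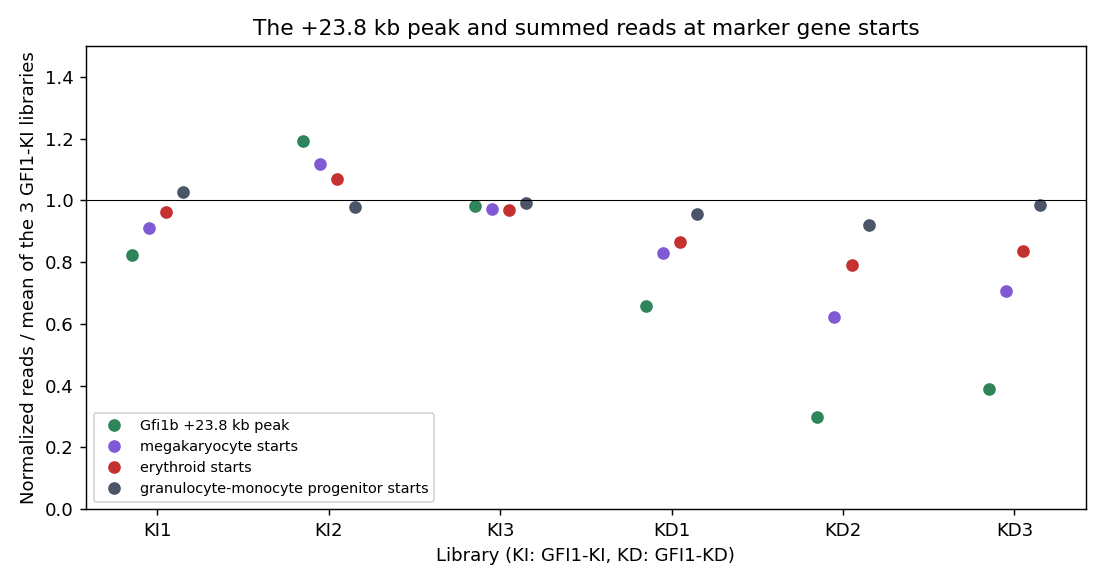
Normalized reads of each library divided by the mean of the 3 GFI1-KI libraries, for the +23.8 kb peak of Gfi1b and for the summed starts of 3 marker lists. The peak, the megakaryocyte starts and the erythroid starts are lower in each GFI1-KD library than in each GFI1-KI library, and the granulocyte-monocyte progenitor starts overlap.

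The genes whose summed reads followed Gfi1b most closely over the 6 libraries were Lemd2 (Pearson r = 0.997), Fgd3 (0.997), Trp53i11 (0.995), Ccdc102a (0.993) and Kcnn4 (0.991), out of 13511 genes with at least 3 peaks. At the other end were Atm (-0.944), Tmem91 (-0.943), Abcb11 (-0.919), Vmn2r90 (-0.913) and Pou2af1 (-0.905). Their adjusted p for genotype ran from 0.162 to 0.971 in limma. The 6 points share their libraries' scaling, and the Gfi1b sum itself had an r of 0.843 with the total of normalized reads per library. Among the 5 genes most like it, as for Gfi1b, KD1 was highest and KD2 lowest, which picking genes by r favours. With 13511 genes and 6 libraries, correlations this strong can arise without a link between genes, and none was tested.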

How the data were processed

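ATAC-seq was made from sorted cells with a Nextera transposition kit, per the labels' protocols. The deposited table gives normalized reads per consensus peak, a coverage signal in which each library's counts were multiplied by 1 factor by the authors (judged from the values). Per the submitters' processing notes, the tools were MACS2, DiffBind, BWA, Picard, SAMtools, Trim Galore, HOMER and ChIPseeker, on mm10, with no roles stated. The merging of peaks, the scaling method and any Tn5 shift of reads were not stated (not given in the sources used here). Columns named WT were taken as GFI1-KI, from the series title and the matching numbers. All values were whole multiples of 1 step per library (100% at a tolerance of 0.01 reads), so reads were recovered. Chromosome codes follow alphabetical order.

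Peaks were assigned with RefSeq coordinates of 21887 protein-coding genes (GRCm38.p6), and starts and strands came from the RefSeq promoter table. Peaks with a mean of 10 or more were tested by limma 3.58.1 (R 4.3.3). The fit had a variance trend, a pseudocount of 1 and no replicate block. It recovered 96.5% of 200 changed peaks in data simulated on 171096 peaks. The changed peaks all had a mean of at least 50, and their changes were larger than those at +3.11 and +22.5 kb. The same dispersion was set for every simulated peak. Whether this rate holds for the Gfi1b peaks was not tested. Fold changes on the log2(value + 1) scale understate changes of low peaks. Alternatives were other scalings, pseudocounts and filters, a replicate block, robust or untrended variance, edgeR 4.0.16, DESeq2 1.42.0, leaving out each library, and other assignments of peaks. Every Gfi1b peak is named, and of each pathway list the peak with the smallest p; further genes were chosen with their values in view. The members and lists were chosen with earlier results of these data known. No genome sequence was used, so downstream peaks are shown without sequence. Tables were made with Python 3.11.15, pandas 2.3.3 and matplotlib 3.10.9. Values of some single genes in the lists are not reported here.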

Additional observations from a re-analysis of the deposited data

How the results depend on the processing

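Of 14 Gfi1b peaks, 4 were called by limma, and 3 to 5 were called without any 1 library, with 3 by DESeq2 and 4 by edgeR and under other scalings, pseudocounts and filters. Robust variance estimation called 2 and limma without a variance trend 1. Over all peaks the 17872 calls became 2581 without a variance trend, 10819 with DESeq2 and 6996 to 22129 without 1 library, the lowest being without KI3, KI2 (7245) and KD3 (10807). The pathway lists had 131 called peaks, and 59 to 174 without 1 library, the lowest without KI3 and KI2 (65). Without KI2 or KI3 the erythroid list had 3 lower peaks in place of 10. The corepressor list had 8 and 5 lower in place of 22, and 8 without KD2. The locus-binding factors had 10 and 10 lower in place of 25. The summed reads of Gfi1b changed by -0.21 to 0.00784 without 1 library, by 0.0313 with peaks within 10 kb only and by 0.11 with all peaks between the neighbouring genes. The ratio of reads outside to inside the gene stayed lower in GFI1-KD, at -1.04 to -0.72 without 1 library. Where a value changed, the cause was not tested.

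Deviations of same-numbered libraries correlated at -0.02, -0.04 and 0.06, so no shared deviation was seen. This cannot show whether the numbers mark a shared litter or day, which the labels do not say. With the replicate number as a block, 4 Gfi1b peaks and 18940 peaks in all were called. In the pairing of numbers the ratio had an exact sign-flip p of 0.25.

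Members that were not called turned in sign around 0. The -0.71 kb peak came to 0.0285 with equal totals, 0.0309 with median-of-ratios, 0.0352 with TMM, 0.0281 with edgeR and 0.0335 with DESeq2, and ran from -0.0803 to 0.0406 without 1 library. The -6.24 kb peak came to -0.12 with edgeR and -0.0796 with DESeq2 and ran from -0.37 to 0.35 without 1 library. The +10.1 kb peak came to 0.0018 with edgeR and ran from -0.32 to 0.25. Without 1 library the +5.45 kb peak ran from -0.21 to 0.10, the promoter peak from -0.0226 to 0.0942 and the +24.8 kb peak from -0.0921 to 0.45. The 95% interval of the shallowest members spans over 1 log2 unit.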

Other observations

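The library order at the +23.8 kb peak of Gfi1b was KI2, KI3, KI1, KD1, KD3 and KD2 from highest to lowest, at 373, 307, 258, 205, 122 and 93.8 normalized reads. The summed starts of the megakaryocyte markers had the same order, at 1718, 1498, 1402, 1275, 1087 and 957, as did those of the erythroid markers, at 1063, 961, 955, 859, 830.5 and 786. With equal totals in peaks the megakaryocyte sums kept this order, but the erythroid sum of KD2 (838) lay above that of KD3 (824). At the start of Gp1ba, the alpha subunit gene of the platelet receptor for von Willebrand factor, the deposited values in the order of the +23.8 kb peak were 228, 187, 141, 114, 66.5 and 38.3. The starts of Itga2b, which encodes the platelet integrin subunit CD41, went from 661 in KI2 to 358 in KD2, and those of Klf1, an erythroid transcription factor, from 791 to 617. Other genes of these lists did not keep the order: Gp9 was higher in KD1 (191.5) than in KI1 (190.3), Gp5 higher in KI1 (179) than in KI3 (174), Pf4 lowest in KI3 (284) and Epor higher in KD3 (204) than in KD1 (193). The other lower Gfi1b peaks did not keep it either. At +15.9 kb KD2 (32.1) lay above KD3 (26.6), and at +22.5 kb KI3 (328.5) lay above KI2 (326.9). The granulocyte-monocyte progenitor starts did not have the order of the +23.8 kb peak, with KI1 highest at 7676. At the start of Cpa3, a mast cell carboxypeptidase gene, the GFI1-KI libraries held 75.4, 107 and 123 normalized reads and the GFI1-KD libraries 43.9, 37.0 and 43.2, without overlap but in another order, whereas Mcpt8, a basophil protease gene, held 238, 198 and 221 against 287, 252 and 231. The order and the genes named were chosen after the values were seen and were not tested.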
